A study of Rattus norvegicus with 23 samples.

Results

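Rat myocardium was compared between 12 and 6 weeks after a myocardial infarction (MI) that received no further treatment. This interval was covered by 12 of the study's 23 RNA sequencing libraries, 6 at each time. Group means of both times were joined by gene symbol, and 10017 of 11283 genes had a mean of at least 1 normalized count at both times. For each of these genes the log2 ratio of the 12-week to the 6-week mean was taken and the median over all genes was subtracted. A gene at 0 on this centred scale therefore stood where the median gene stood, and a value of 1 is a 2-fold higher mean at 12 weeks. The other 1266 genes entered no count, and those that matter here are given by their values.

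The animals were Sprague-Dawley rats in which the left coronary artery was tied off through an opening of the left chest wall. In the MI group nothing else was done, and myocardium was taken at 6 weeks (6 libraries) or 12 weeks (6 libraries). A second pair of groups, MI+TRD, was infarcted likewise and operated on again to implant a device that the labels call TRD and do not describe, with 5 libraries at 6 weeks and 6 at 12 weeks. All groups compared here carried an infarct, and no group without one was used. The labels give neither the age or sex of the rats nor the part of the heart that was sectioned, so scar, border and distant muscle cannot be told apart. They do not say that replicates were separate animals.

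At 6 weeks the MI group was known only by the authors' mean, so how it divides among its 6 libraries is not known and 1 library could carry it. No test between the times could be run. Values for each library were at hand for the 12-week group, and the 6-week mean, multiplied by the 1.04-fold shift of the median gene, was set against their range. For a single gene, overlap below means only that this 6-week mean lay inside that range. The 6 libraries at 12 weeks held 8869976 to 10304156 recovered reads, and a value of 1 stood for 16.1 to 23.0 reads. Pearson's r of their log2 values lay between 0.943 and 0.977 for pairs of libraries, and no pair agreed within sampling noise. Replicate 2 stood apart by atrial muscle and fat cell genes, as described below. Values are not divided by gene length, so levels are compared within a gene only.

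After an infarct, dead muscle is replaced by a collagen scar that fibroblasts lay down and then remodel over weeks. The surviving heart muscle cells take on more load, and in failing hearts the genes for burning fatty acids in mitochondria are commonly turned down while atrial and fetal stress genes are turned up. Macrophages, vessels, lymphatics and the outer mesothelial layer, the epicardium, all take part in the repair.

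In the whole comparison, 26 genes (0.26%) were at least 2-fold higher at 12 weeks and 54 genes (0.539%) at least 2-fold lower. Scaling both mean columns to the same total, which shifts the median gene by -0.11 on the log2 scale, gave 20 higher and 80 lower. Past 1.5-fold, 175 genes (1.75%) were higher and 390 (3.89%) lower. Of the 10003 genes with a value for each library, 709 (7.09%) had a 6-week mean below all 6 libraries and 1021 (10.2%) had one above all 6. Among the 26 higher genes 12 had their 6-week mean outside the library range, and among the 54 lower genes 48 did. The middle part of all genes, from the 25% to the 75% point, lay between -0.20 and 0.17.

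**Figure D1:**
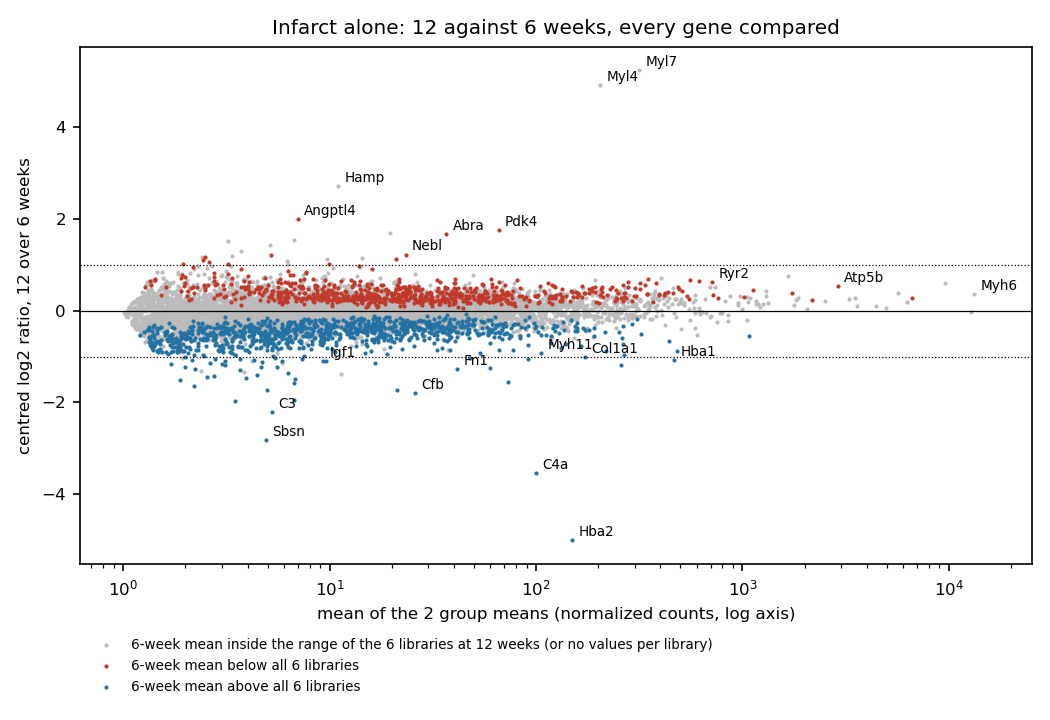
Centred log2 ratio of the 12-week to the 6-week mean in MI (vertical axis) against the mean of both group means in normalized counts (horizontal log axis), with 1 point for each of the 10017 genes. Red points are the 709 genes whose 6-week mean lay below all 6 libraries at 12 weeks, blue points the 1021 whose 6-week mean lay above all 6, grey points the rest, and dotted lines mark 2-fold. Myl7 and Myl4 are the highest points but are grey, and Hba2 and C4a are the lowest.

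Angptl4 and Pdk4 had the highest ratios among genes with a larger mean of at least 10 and a 6-week mean outside the library range. Pdk4, the kinase that switches off pyruvate dehydrogenase and so spares glucose (rn6 chromosome 4, 30546772 to 30556775), had a 6-week mean of 29.4 normalized counts and 12-week libraries from 70.0 through a median of 108 to 119. Every library at 12 weeks lay far above the 6-week mean, which was 3.35-fold lower than the 12-week mean after centring (centred log2 ratio 1.75). Angptl4, a secreted inhibitor of lipoprotein lipase (chromosome 7, 18627814 to 18634044), had a 6-week mean of 2.72 and libraries from 4.23 through 9.22 to 24.2, a 3.99-fold higher mean after centring. Its 6 libraries were widely spread but all above the 6-week mean. Prkaa2, the catalytic alpha 2 subunit of the energy sensor AMPK, had a mean of 9.13 at 6 weeks and libraries from 10.96 to 30.2 (0.97). Lpin1, a phosphatidate phosphatase of fat metabolism, had 16.3 at 6 weeks and 18.7 to 38.4 at 12 weeks (0.69).

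Genes for the use of these fuels stood a little higher as whole lists. The citrate cycle list also counts the kinases Pdk4 and Pdk1, and the fatty acid list counts Angptl4. All 26 compared genes of the citrate cycle and the pyruvate dehydrogenase complex lay above the median gene, against 50% of all genes, with a list median of 0.39. For 13 of these 26 the 6-week mean was below every library, against 7.09% of all genes. Sdha, the flavoprotein of succinate dehydrogenase, had 296 at 6 weeks and libraries from 384 through 453 to 553 (0.59). Suclg2, a subunit of succinyl-CoA ligase, had 51.5 against 61.3 to 88.6 (0.52). Taken library by library against the 6-week mean, the list median ran from 0.07 to 0.63, lowest in replicate 2.

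Of 38 genes of fatty acid uptake and oxidation 36 lay above the median gene, with a list median of 0.35. For 12 of them the 6-week mean was below all libraries, against 7.09% of all genes. Library by library the list median ran from -0.07 in replicate 2 to 0.75 in replicate 4. Hadhb, a subunit of the trifunctional protein of beta-oxidation, had 268 at 6 weeks and 333 through 397 to 501 at 12 weeks (0.56). Etfdh, which passes electrons from fatty acid oxidation to ubiquinone, had 97.1 against 110 to 178 (0.53). Ucp3, a mitochondrial carrier of muscle, had 13.1 against 10.8 to 31.8 (0.71), so its 6-week mean fell inside the range. Lipe, the hormone-sensitive lipase, lay below the median gene at -0.17.

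Genes for ketone and branched-chain amino acid use had the highest median of the metabolic lists, 0.46, with 18 of 19 above the median gene. For 8 of them the 6-week mean was below all libraries, against 7.09% of all genes. Oxct1, which activates ketone bodies for oxidation, had 470 at 6 weeks and libraries from 550 to 1055 (0.65). Ivd, of leucine breakdown, had 88.8 against 104 to 208 (0.60). Acadsb, of isoleucine breakdown and outside the list, was among the 15 highest genes with 5.37 against 6.42 to 12.6 (0.84).

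The median was 0.14 for 34 genes of complex I and 0.15 for 37 genes of complexes III, IV and V, and 4 and 5 members had a 6-week mean below all libraries, against 7.09% of all genes. Library by library these medians ran from -0.41 to 0.55 and from -0.41 to 0.59, above 0 in 4 of 6 libraries. Over the alternative settings complex I ran from 0.0352, with equal totals, to 0.216, without replicate 5. Complexes III to V ran from 0.0312, with the trend along level removed, to 0.24, without replicate 5. Of the latter 35 of 37 genes lay above the median gene, and Uqcrb (-0.03) and Uqcrq (-0.02) were the others. Among members with every library above the 6-week mean, Atp5b, the catalytic beta subunit of ATP synthase, had 2327 at 6 weeks and 3162 to 3769 at 12 weeks (0.53). The ratio of Atp5b ran from 0 to 0.58 over the alternative settings. Uqcrc2, a core protein of complex III, had 248 against 333 to 471 (0.60). The 70 mitochondrial ribosomal proteins had a median of 0.17, and 17 had a 6-week mean below all libraries. Regulators of mitochondrial genes had a median of 0.31 over 13 genes, but only Tfam and Tfb2m, both needed to transcribe mitochondrial DNA, had a 6-week mean outside the range. Ppargc1a, the coactivator PGC-1 alpha, had 9.37 at 6 weeks and 7.92 through 12.97 to 18.3 at 12 weeks (0.39), which overlaps.

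**Figure D2:**
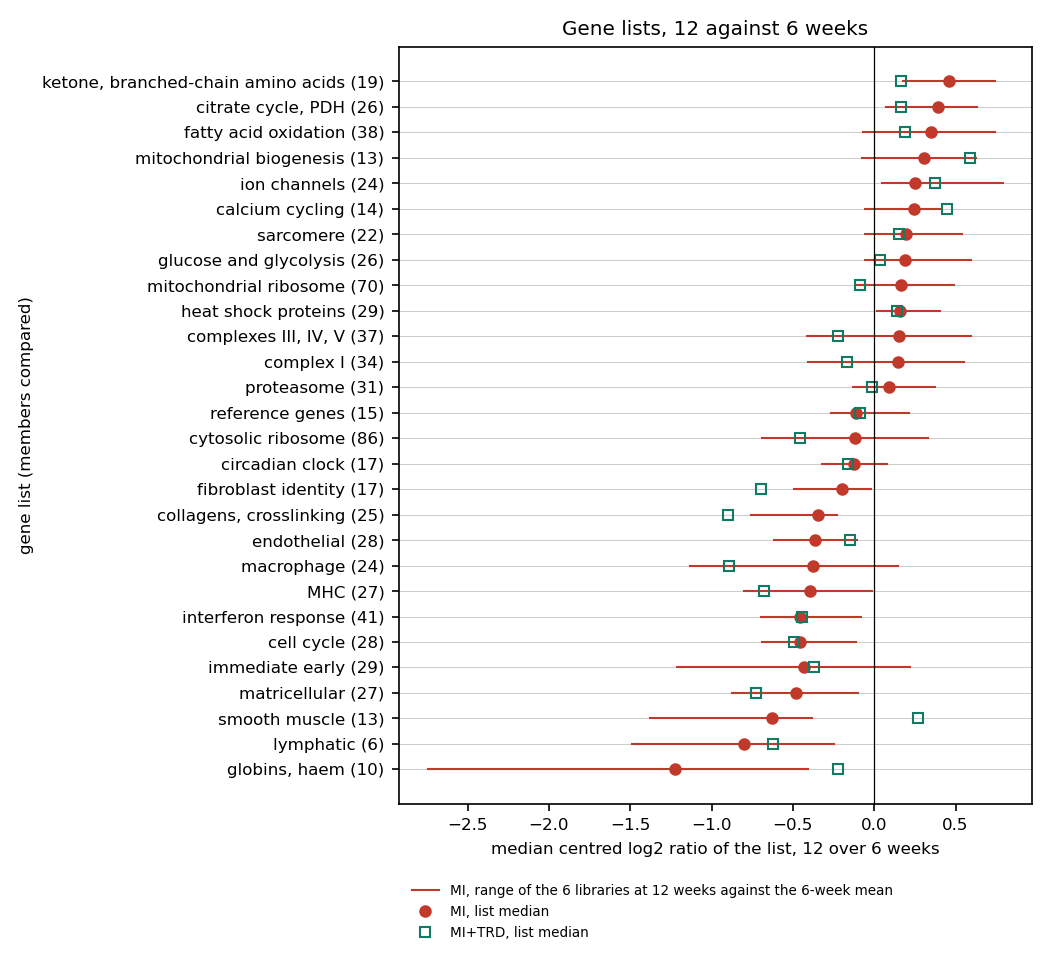
Median centred log2 ratio, 12 over 6 weeks, for 28 gene lists with the number of members compared in brackets. Red dots are MI, red lines span the medians of the 6 single libraries at 12 weeks against the 6-week mean, and open squares are MI+TRD. Citrate cycle, ketone use, ion channels and heat shock proteins lie right of 0 in all 6 libraries, and collagens, interferon response, endothelial, smooth muscle and globin genes lie left of 0 in all 6.

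Over all 54 lists, 24 had a median above 0 and 30 below 0. In 4 lists the median lay above 0 in each of the 6 libraries, and in 12 lists it lay above 0 in none. Several lists share members, such as Pdk4 and Angptl4, which also stand among genes known to respond to glucocorticoids.

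Of 22 sarcomere genes 20 lay above the median gene, with a median of 0.20. For 6 of them the 6-week mean was below all libraries, against 7.09% of all genes. Library by library the list median ran from -0.06 to 0.54, and over the alternative settings from 0 to 0.27. Nebl, the Z-disc protein nebulette, had 13.6 at 6 weeks and 17.0 through 33.7 to 45.6 at 12 weeks (1.22). Lmod2, which lengthens thin filaments, had 259 against 368 through 433 to 525 (0.69), and its libraries were tightly grouped well above 259. Myh7b was the exception in the other direction, with 246 against 149 to 254 (-0.47). Abra, an actin-binding protein of striated muscle, had 17.1 at 6 weeks and 18.1 through 30.1 to 180 at 12 weeks. Its ratio of 1.66 rested largely on replicate 2, and was 0.84 without it.

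Calcium handling genes had a median of 0.24 over 14 genes, and library by library this median ran from -0.06 to 0.40. Ryr2, the calcium release channel of the sarcoplasmic reticulum, had 550 at 6 weeks and 715 through 890 to 1055 at 12 weeks (0.62). Slc8a1, the sodium-calcium exchanger, had 126 against 140 to 194 (0.40), and Casq2, the calcium store protein, 621 against 678 to 1099 (0.34). For these 3 genes the 6-week mean was below every library. Atp2a2, the calcium pump SERCA2a, had 4803 at 6 weeks and 4911 to 9001 at 12 weeks (0.39), with 5 of 6 libraries above the 6-week mean. Over the alternative settings its ratio ran from 0 to 0.46. Ion channel genes had a median of 0.25 over 24 genes, with Kcnk3, a background potassium channel, at 31.2 against 33.2 to 79.3 (0.59). Library by library the list median was 0.79 in replicate 4 and between 0.05 and 0.12 in the others. Replicate 4 also held the highest value of Kcnk3.

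For genes commonly read as heart failure markers the 6-week mean lay inside the range of the 12-week libraries. Nppa, atrial natriuretic peptide, had a 6-week mean of 1198 and libraries from 146 through 1324 to 6757, and 3 of 6 lay above the 6-week mean. Its ratio of 0.76 became -0.06 without replicate 2. Nppb, brain natriuretic peptide, had 217 at 6 weeks and 151 through 333 to 455 at 12 weeks (0.50). Myh6, the fast myosin heavy chain, stood at 0.36 and Myh7, the slow one, at -0.04, both with overlap. Acta1, skeletal actin, was at -0.21, Ankrd1, a stretch-responsive repressor, at 0.10 and Xirp2, an intercalated disc protein, at 0.31, all inside the library range.

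**Figure D3:**
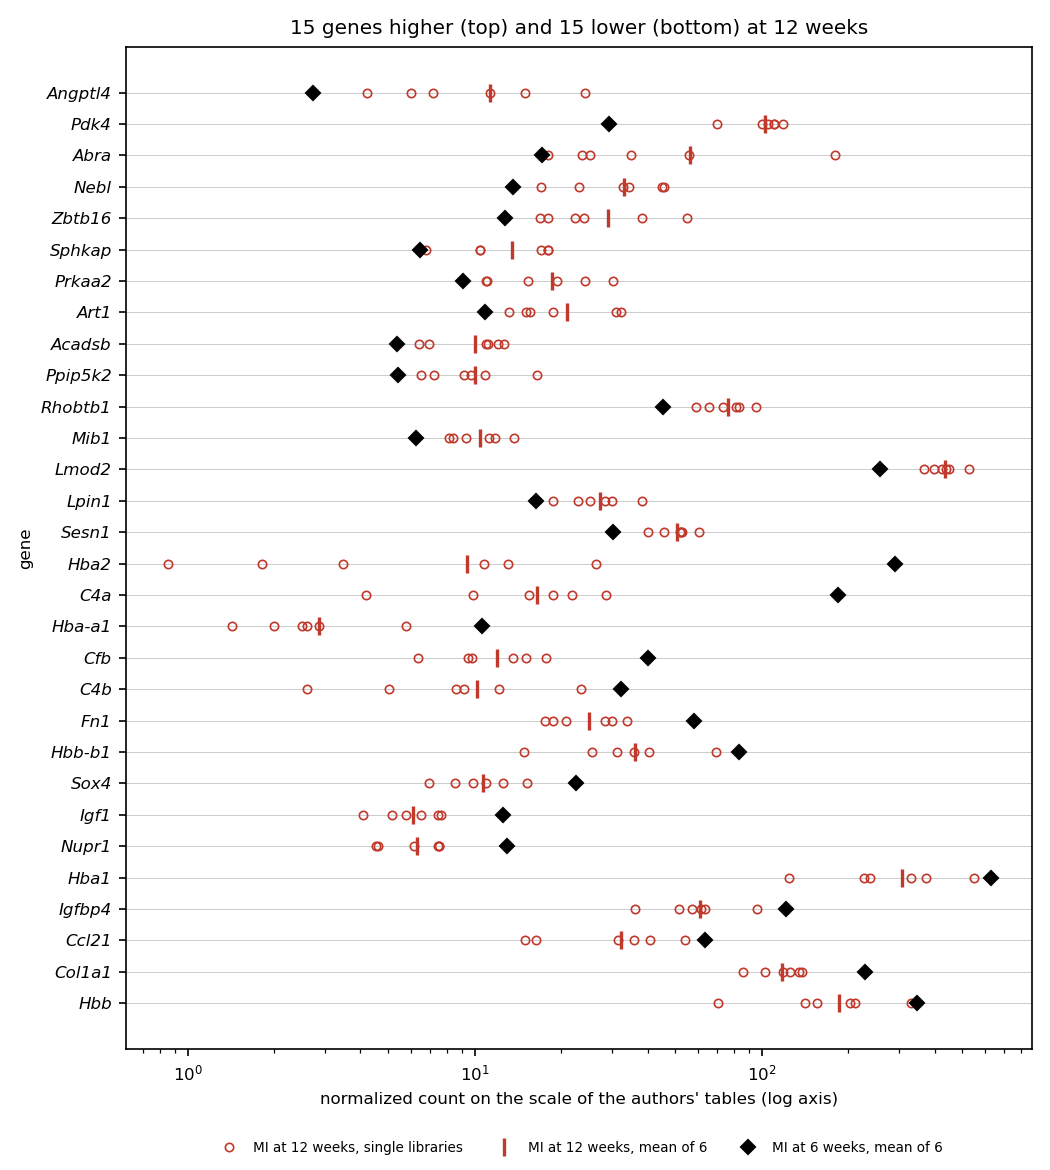
Normalized counts on a log axis for the 15 genes with the highest and the 15 with the lowest centred log2 ratio among genes with a 6-week mean outside the library range and a larger mean of at least 10. Open circles are the 6 MI libraries at 12 weeks, bars their mean, and black diamonds the authors' 6-week mean. Pdk4, Rhobtb1, Lmod2 and Sesn1 show tight libraries to the right of the diamond. Fn1, Igf1 and Col1a1 show tight libraries to its left, and C4a shows widely spread ones, all left of it.

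The other genes of the highest 15 had various roles. Zbtb16, a zinc finger transcription factor, had 12.8 at 6 weeks and 16.9 to 54.8 at 12 weeks (1.13). Rhobtb1, an atypical small GTPase, had 45.3 against 59.1 to 95.2 (0.70). Sesn1, a sestrin that restrains growth signalling under stress, had 30.3 against 40.0 to 60.3 (0.68). Sphkap, Art1, Ppip5k2 and Mib1 made up the rest, between 1.62-fold and 2.01-fold higher.

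Scar genes were lower at 12 weeks. In bulk tissue, fewer cells of a type and less RNA for each cell cannot be told apart. Of 25 collagens and crosslinking enzymes 23 lay below the median gene, with a median of -0.35, and for 12 the 6-week mean was above all libraries, against 10.2% of all genes. Col1a1, the alpha 1 chain of type I collagen (chromosome 10, 82745801 to 82762791), had 229 at 6 weeks and 85.8 through 122 to 138 at 12 weeks (-1.02). All 6 libraries lay well below the 6-week mean. Col3a1, of type III collagen, had 615 against 256 through 365 to 412 (-0.88), and Col1a2 had 278 against 126 to 181 (-0.88). The span listed for Col1a2 (chromosome 4, 29529854 to 31569153) holds that of Pdk4, and use of strand is not given. The value of Col1a2 is therefore uncertain. Lox, the enzyme that crosslinks collagen, had 2.76 against 0.387 to 2.28 (-1.22). P4ha1, which hydroxylates collagen, was at 0.11 with overlap.

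Matricellular and other matrix proteins had a median of -0.48 over 27 genes, with 22 below the median gene. For 10 of them the 6-week mean was above all libraries, against 10.2% of all genes. Fn1, fibronectin (chromosome 9, 78900113 to 78969014), had 58.2 at 6 weeks and 17.6 through 24.6 to 33.9 at 12 weeks (-1.28). Fmod, fibromodulin, which binds collagen fibrils, had 7.65 against 2.11 to 5.54 (-1.22). Postn, periostin of activated fibroblasts, had 7.92 against 1.99 through 2.91 to 13.5 (-0.59). Cthrc1 had a mean of 0.867 at 6 weeks and 0.249 at 12 weeks and was not compared. Of 17 fibroblast genes 14 lay below the median gene, with a median of -0.20, and 5 had a 6-week mean above all libraries. Thy1, a surface glycoprotein, was at -0.99, Acta2, smooth muscle actin, at -0.70 and Mfap5, a microfibril protein, at -0.47. Tcf21, a fibroblast transcription factor, was at -0.05, and Dcn, decorin, was 1 of 3 members above the median gene at 0.16. Timp1, an inhibitor of matrix proteases, stood at -0.70 and Spp1, osteopontin, at -0.37, both with overlap.

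Igf1, insulin-like growth factor 1, had 12.5 at 6 weeks and 4.08 through 6.12 to 7.62 at 12 weeks (-1.10). Igfbp4, which binds that factor, had 121 against 36.3 to 96.6 (-1.04). Both are in a list of insulin and growth signalling genes in which 12 of 19 lay above the median gene, with a median of 0.16. Library by library that median ran from -0.11 to 0.46 and was above 0 in only 2 of 6 libraries, replicates 2 and 4. Insr, the insulin receptor, had 18.6 against 21.2 to 34.0 (0.52). Sox4, a transcription factor, was at -1.13 and Nupr1, a stress-induced nuclear protein, at -1.09. The span listed for Nupr1 (chromosome 1, 194767484 to 198045153) holds other genes, and whether counting used strand is not given, so its value is uncertain.

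Vessel genes were lower throughout. All 28 endothelial genes lay below the median gene, against 50% of all genes, with a median of -0.37. For 8 of them the 6-week mean was above all libraries, against 10.2% of all genes. Pecam1, an adhesion protein of endothelial junctions, had 139 at 6 weeks and 81.1 through 102 to 136 at 12 weeks (-0.44). Meox2, a homeobox factor of heart endothelium, had 18.3 against 7.77 to 13.9 (-0.72). Neither these nor any other endothelial gene differed by 2-fold, which only 0.26% (higher) and 0.539% (lower) of all genes did. Of 6 lymphatic genes 5 lay below the median gene and had a 6-week mean above all libraries. Pdpn, podoplanin, had 8.91 against 2.37 to 4.96 (-1.35), Ccl21, the chemokine that draws immune cells into lymphatics, 63.2 against 15.02 to 54.2 (-1.02), and Lyve1, a hyaluronan receptor, 24.7 against 7.70 to 23.1 (-0.95). Prox1, the master regulator of lymphatic identity, also expressed by heart muscle cells, was at 0.40 with overlap.

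Smooth muscle genes had a median of -0.63 over 13 genes, and 7 had a 6-week mean above all libraries, against 10.2% of all genes. Myh11, smooth muscle myosin, had 137 at 6 weeks and 52.7 through 79.8 to 91.2 at 12 weeks (-0.93). Cnn1, calponin, had 6.34 against 1.22 to 5.13 (-1.12), and Tagln, transgelin, 69.3 against 24.6 to 52.9 (-0.91). Des, Pln and Synpo2, which heart muscle expresses too, were the 3 members above the median gene. Over the same interval the list median in MI+TRD was 0.27. There Myh11 had 74.97 at 6 weeks and libraries from 37.3 through 66.3 to 406 at 12 weeks, so its mean rested on few libraries, and the difference between the groups was not tested.

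Immune genes were lower by modest amounts that were spread over many members. Interferon response genes encode antiviral proteins switched on together by interferon through a shared DNA element. Of 41 such genes 39 lay below the median gene, with a median of -0.46, and 19 had a 6-week mean above all libraries, against 10.2% of all genes. None differed by 2-fold, which only 0.26% (higher) and 0.539% (lower) of all genes did. Rsad2, the antiviral enzyme viperin, had 12.2 at 6 weeks and 5.13 through 6.94 to 9.74 at 12 weeks (-0.82). Gbp5, a guanylate-binding protein, had 9.33 against 3.67 to 8.001 (-0.80). Isg20, an exonuclease that degrades viral RNA, had 2.13 against 0.860 to 1.56 (-0.94), and Gbp4 had 2.36 against 0.498 to 2.25 (-0.82). Irf1, a transcription factor of the response, sat near the median gene at -0.05. Copies of the Oas family share sequence, so their single values are uncertain.

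The element these genes share was looked for in RefSeq promoters of the GRCr8 build, each running from 250 bases before to 50 bases after the annotated start. Promoters were matched for 31 of the 41 genes. The core of the interferon-stimulated response element, searched as GAAA, any 2 bases and GAAA again on either strand, was present in 22 of 31 (71.0%), against 3.79% of all 27457 promoters. The list was made of known interferon response genes, so this high share follows from that choice and says nothing about the 2 times. Members with the core had a median of -0.51 (n = 22, from -0.94 to -0.02). Those without it had -0.35 (n = 9, from -0.78 to -0.04). These ranges overlap, and the difference was not tested. Shown are the 250 bases before the start of the 4 lowest members that hold it, 5′ to 3′ on the strand of the gene, with the matching bases in capitals. A match is a description of these letters and not a bound site.
Isg20, GRCr8 chr1:142239809-142240058, plus strand: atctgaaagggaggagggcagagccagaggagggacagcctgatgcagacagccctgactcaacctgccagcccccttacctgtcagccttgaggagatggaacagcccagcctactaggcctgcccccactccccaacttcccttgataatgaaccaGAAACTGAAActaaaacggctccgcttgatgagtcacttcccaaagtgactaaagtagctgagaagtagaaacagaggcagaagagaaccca
Gbp4, GRCr8 chr2:233978236-233978485, plus strand: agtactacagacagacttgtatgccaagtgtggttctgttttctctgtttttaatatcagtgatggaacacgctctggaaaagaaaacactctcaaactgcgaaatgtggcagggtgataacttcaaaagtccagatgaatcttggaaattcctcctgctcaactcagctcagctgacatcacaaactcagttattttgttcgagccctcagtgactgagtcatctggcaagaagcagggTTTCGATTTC
Rsad2, GRCr8 chr6:48788121-48788370, minus strand: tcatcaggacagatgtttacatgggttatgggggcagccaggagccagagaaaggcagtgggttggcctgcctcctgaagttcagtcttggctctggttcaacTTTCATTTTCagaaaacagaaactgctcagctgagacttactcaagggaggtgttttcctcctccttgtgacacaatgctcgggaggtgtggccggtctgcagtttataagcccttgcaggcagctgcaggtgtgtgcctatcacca
Gbp5, GRCr8 chr2:233910749-233910998, plus strand: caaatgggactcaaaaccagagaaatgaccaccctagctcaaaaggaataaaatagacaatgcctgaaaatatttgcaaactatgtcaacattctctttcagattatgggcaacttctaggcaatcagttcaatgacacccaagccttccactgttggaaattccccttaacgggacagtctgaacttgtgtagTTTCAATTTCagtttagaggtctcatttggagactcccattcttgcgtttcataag

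In Isg20 the match ends 83 bases before the start, and in Gbp4, Rsad2 and Gbp5 it lies on the other strand and therefore reads as its reverse complement. In Gbp4 it reaches the last base before the start, and in Gbp5 it ends 47 bases before it. The same search with TCAAGGTCA, an element of the estrogen-related receptors that act on mitochondrial genes, found it in 1 of 23 citrate cycle promoters (Sdhd), against 0.397% of all promoters. It was in 0 of 31 promoters of fatty acid oxidation, 0 of 31 of complex I, 0 of 17 of complexes III to V and 0 of 15 of ketone and branched-chain amino acid use. A CArG box, bound by serum response factor, was in 0 of 9 smooth muscle promoters, against 1.64% of all. The glucocorticoid element was in 0 of 18 promoters of glucocorticoid-responsive genes, against 0.419% of all.

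Genes of antigen presentation followed the same direction, with 26 of 27 below the median gene and a median of -0.39. For 8 of them the 6-week mean was above all libraries, against 10.2% of all genes. RT1-DMa, which loads peptides on class II molecules, had 3.81 at 6 weeks and 1.71 to 2.79 at 12 weeks (-0.86). Its listed span (chromosome 20, 3935512 to 5244379) holds other genes, Tap1 and RT1-Bb among them, so its value is uncertain. B2m, the light chain of class I, was at -0.11. RT1 genes are near-identical copies whose reads could be split between them. All 24 compared macrophage genes lay below the median gene, with a median of -0.38, and 4 had a 6-week mean above all libraries, against 10.2% of all genes. Lyz2, lysozyme, had 84.4 against 24.5 through 47.0 to 83.6 (-0.86), and Cd68, a lysosomal protein, had 2.997 against 1.29 to 3.44 (-0.63). The list median ran from 0.15 in replicate 1 to -1.13 in replicate 6. T cell and natural killer genes were near the minimum, with 6 of 11 compared and a median of -0.41.

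Complement held some of the lowest genes. C4a, a gene for complement component 4 (chromosome 20, 4302345 to 4508198), had 184 at 6 weeks and 4.19 through 17.1 to 28.6 at 12 weeks. After centring the 12-week mean of C4a was 11.6-fold lower (-3.54). C4b, the near-identical copy of C4a, had 32.3 against 2.61 to 23.5 (-1.72). The span listed for C4b (4302345 to 4316753) lies within that of C4a, so reads of the copies cannot be told apart. C3, the central component, had 8.61 against 0.665 to 3.05 (-2.20). Cfb, factor B of the alternative pathway, had 40.0 against 6.32 through 11.6 to 17.8 (-1.79). The list as a whole had a median of -0.38, with 16 of 21 below the median gene.

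Markers of the mesothelial layer were lower at 12 weeks as well. Msln, mesothelin, had a mean of 22.4 at 6 weeks and libraries from 0.0584 to 1.44 at 12 weeks. Upk1b, a mesothelial uroplakin, had 6.63 against 0.0833 to 0.350, and the keratins Krt8 and Krt18 had 6.67 against 0.117 to 0.697 and 3.72 against 0.143 to 0.625. All lay under the minimum of 1 at 12 weeks and were not counted. Of 13 epicardial and mesothelial genes 7 were compared, with a median of -0.64. For 5 of these 7 the 6-week mean was above all libraries, against 10.2% of all genes. Aldh1a2, which makes retinoic acid in epicardium, had 5.47 against 0.618 to 2.10 (-1.97), and Wt1, an epicardial transcription factor, 23.0 against 8.94 to 22.8 (-0.64). Sbsn, suprabasin, an epithelial secreted protein outside the list, had 8.54 against 0.665 to 1.99 (-2.83). The summed level of the list was 132 at 6 weeks and 51.5 to 104 in the libraries at 12 weeks. In MI+TRD the mean of Msln was 25.6 at 6 weeks and 12.6 at 12 weeks, with 12-week libraries from 0.277 to 39.0, and C4a had 331 and 124. Which cells the complement transcripts came from, and how much of the outer layer each piece held, was not tested.

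The lowest ratio of all compared genes was that of Hba2, an alpha globin (chromosome 10, 15577166 to 15603650). It had 291 at 6 weeks and 0.851 through 7.14 to 26.6 at 12 weeks, a 32.0-fold lower mean after centring (-5.00). In MI+TRD it went the other way, from 28.5 to 138 (2.37), and the libraries there ran from 0.502 to 485. Its listed span holds those of Hba1 and Hba-a1, so reads of these copies could be split differently between them. Hba1 had 628 at 6 weeks and 124 through 284 to 550 at 12 weeks (-1.09), and the beta globin Hbb had 347 against 70.2 to 331 (-0.96). Alas2, which starts haem synthesis in red cell precursors, had 9.92 against 1.33 to 7.30 (-1.58). Of 10 red cell genes 8 lay below the median gene with a 6-week mean above all libraries, against 10.2% of all genes. How much blood each piece held was not tested.

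**Figure D4:**
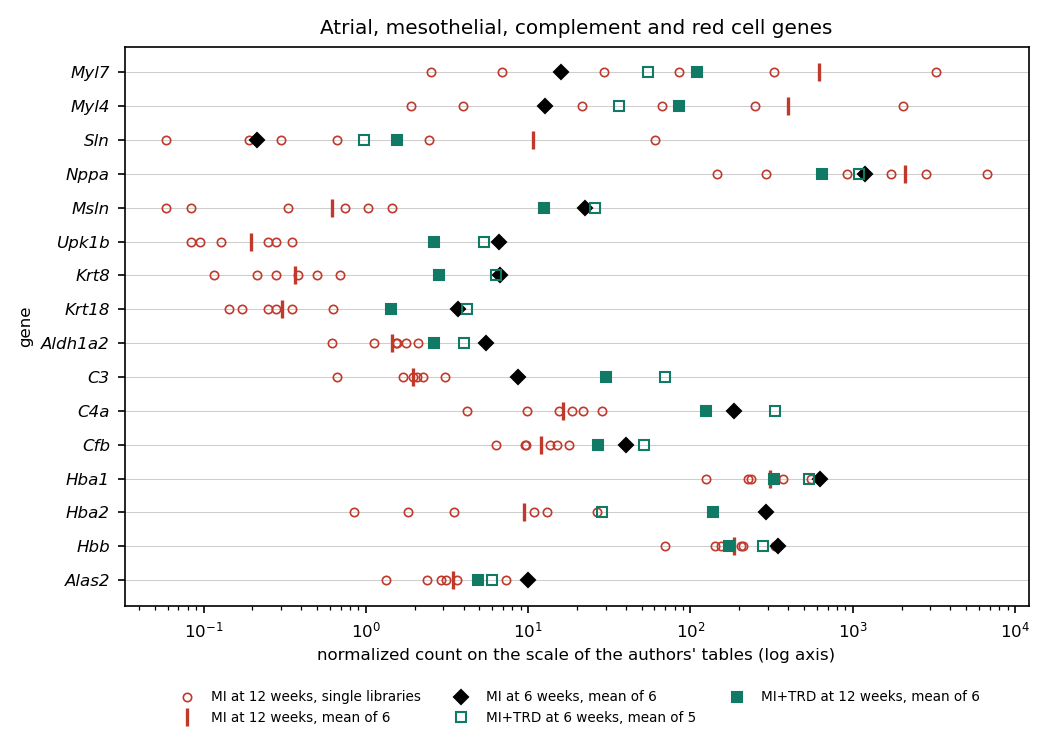
Normalized counts on a log axis for atrial muscle (Myl7 to Nppa), mesothelial (Msln to Aldh1a2), complement (C3 to Cfb) and red cell genes (Hba1 to Alas2). Red circles are the 6 MI libraries at 12 weeks with their mean as a bar, black diamonds the MI mean at 6 weeks, and green squares the MI+TRD means at 6 weeks (open) and 12 weeks (filled). Msln, Upk1b, Krt8 and Krt18 lie far left of their 6-week diamond in all 6 libraries, while for Myl7, Myl4 and Sln the libraries spread to both sides of it, with replicate 2 farthest right and replicate 5 next.

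The highest ratios of all compared genes belonged to the atrial muscle genes Myl7 and Myl4, with values that differed widely between libraries. Myl7, the atrial regulatory light chain, had 15.9 at 6 weeks and libraries from 2.51 through 56.9 to 3253 at 12 weeks, a ratio of 5.23. Myl4, the atrial essential light chain, had 12.7 against 1.89 through 44.4 to 2035 (4.91). Replicate 2 held the highest value of each, and replicate 5 the next, with 326 for Myl7 and 249.6 for Myl4. In each case 4 of 6 libraries lay above the 6-week mean and 2 below it. Without replicate 2 the ratios were 2.46 for Myl7 and 2.40 for Myl4, and without replicates 2 and 5 they were 0.90 and 0.84. Sln, sarcolipin of atrial muscle, had 60.7 in replicate 2 and 0.0584 to 2.46 in the others. Adipoq, the fat cell hormone adiponectin, had 18.7 there and 0.0584 to 2.92 in the others. Hamp, hepcidin, had 96.6 there against a 6-week mean of 2.80. Replicate 2 was the highest library for 17 of the 26 genes past 2-fold, and without it 15 genes passed. The share of atrial tissue in each piece was not tested.

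Among other lists, proliferation genes had a median of -0.46 over 28 genes, with 22 below the median gene. For 10 of them the 6-week mean was above all libraries, against 10.2% of all genes. Mki67, the proliferation antigen, had 6.60 at 6 weeks and 2.61 through 3.68 to 5.31 at 12 weeks (-0.82). Most of these genes were near the minimum, and over the 8 members with means of at least 5 the median was 0.06. Immediate early genes had a median of -0.43 with wide libraries, as for Fos, with 47.8 against 3.09 to 50.4 (-0.85). Genes known to respond to glucocorticoids were split, with Fkbp5 at 0.59 beside Pdk4, Angptl4 and Zbtb16 and with Dusp1 at -0.46 and Per1 at -0.37, and a median of 0.10. Heat shock proteins had a median of 0.16 and 8 of 29 members with a 6-week mean below all libraries, against 7.09% of all genes. Clock genes (-0.13) and the proteasome (0.09) were near the median gene. Cytosolic ribosomal proteins had a median of -0.12, with 71 of 86 below the median gene. Their library medians ran from -0.69 in replicate 6 to 0.33 in replicate 2 and were above 0 in 2 of 6 libraries. That list also held the kinase gene Rps6ka1 (-0.84).

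The same interval with the device in place was read from the MI+TRD means of the same tables, which hold no samples of the MI group. There 93 of 9803 genes (0.949%) were at least 2-fold higher and 186 (1.9%) at least 2-fold lower. Both intervals shared 10 higher genes, which were 38.5% of those in MI and 10.8% of those in MI+TRD, and 16 lower genes, 29.6% and 8.60%. Across the 9803 genes the centred ratios of the intervals had a Pearson correlation of 0.47 and a Spearman correlation of 0.46, where genes are not independent and each interval pairs the same 2 tables. Pdk4 (1.97) and Nebl (1.40) were high in MI+TRD too, whereas Angptl4 (0.41), Abra (0.17) and Lmod2 (0.23) were closer to its median gene. Collagens had a median of -0.90 there against -0.35 in MI, macrophage genes -0.89 against -0.38, and complex I -0.17 against 0.14. In MI+TRD the ratio went with genomic span, from -0.33 for genes up to 2 kb to 0.21 for those over 200 kb. In the MI means the medians of span classes lay between -0.03 and 0.03, but single MI libraries at 12 weeks differed in direction. Against the 6-week mean, genes up to 2 kb stood at 0.18 in replicate 2 and -0.21 in replicate 6. Genes of 50 to 100 kb stood at -0.06 and 0.08 there. No difference between the intervals was tested.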

How the data were processed

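Sequencing of polyadenylated RNA was by Illumina (labels' protocols). Partek and the build rn6 appear in the submitters' processing notes. The aligner, counting, annotation, scaling and use of strand were not given in the sources used here. The authors deposited a signal, the normalized count for each gene and library of the 12-week groups, and for each time a table of group means (least-squares means) of normalized counts, per the file headers. The means at 12 weeks equalled means of the library values times a factor for each MI library of 1.02 to 1.08, which put the library values on the scale of the table. Low values were whole multiples of a step in each library: 97.8% to 98.6% of values up to 20 steps lay within 0.1 of a whole number, which gave the recovered reads. A value for each library at 6 weeks was not used here.

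Tables were joined on gene symbol (Python 3.11.15, pandas 2.3.3, numpy 2.4.6, matplotlib 3.10.9). Genes with both means of at least 1 were kept, and log2 ratios were centred on the median gene. The steps were tested on simulated data. Members and the 54 gene lists were chosen with earlier results of these data known. Named were the 15 highest and 15 lowest genes with a larger mean of at least 10, no locus identifier and a 6-week mean outside the library range, 16 genes of stress and scar, up to 4 members of each list with the largest ratio and members a list's account turns on, and up to 3 genes each way past 2-fold with the 6-week mean inside the range. Mesothelial and fat cell genes under the minimum, Sbsn and the promoters shown were chosen after their values were seen. Sequences are from RefSeq, build GRCr8. Alternatives for scaling, the minimum, a pseudocount, each library and the fold are given in the closing section. Some list members are not reported here by name and stayed in the counts.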

Additional observations from a re-analysis of the deposited data

Results flagged for a closer look

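In the MI group at 12 weeks, 28 of 232 named genes had 1 library that lay far from the other 5, by a gap to its neighbour above 0.625 of the whole range. For normally distributed values chance alone flags about 1 in 20 groups. Here the values were untransformed counts, and many genes were picked for large ratios, which 1 high library can produce. The 28 of 232 can therefore not be set against that rate. Each flagged value was a high one. Replicate 2 held the flagged value for Myl7 (3253 normalized counts), Myl4 (2035), Stard10 (120.9), Hamp (96.6), Abra (180), Gpx3 (921), Cfd (32.4), Npr3 (18.4), Kcnj3 (29.5), Tpm2 (53.9), Itga8 (5.13) and Zfp365 (3.88). Replicate 1 held it for Gdf15 (9.72), S100a9 (6.33), Fkbp5 (103), Bhlhe40 (80.2), Hmox1 (15.6), Lyve1 (23.1) and Fcgr1a (2.67). Replicate 4 held it for Hba-a1 (5.78), Rspo1 (4.20), Il16 (7.36), Ushbp1 (53.0), Psmd11 (51.5), Mrps7 (65.4) and Ckm (1873). Replicate 5 held it for Spp1 (13.3) and Thbs4 (6.21). The causes were not tested.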

How the results depend on the processing

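No paired analysis was possible because values for each library were at hand at 12 weeks only. Against 26 genes 2-fold higher as reported, there were 9 with a minimum mean of 5, 14 with a pseudocount of 1, 15 with the median of the 6 libraries and 12 with the 6-week mean outside the library range. Leaving out 1 library gave 15 to 31, the lowest without replicate 2, and leaving out replicates 2 and 5, an alternative added after seeing the data, gave 17. Against 54 genes 2-fold lower, there were 17 with a minimum mean of 5, 28 with a pseudocount of 1 and 90 without replicates 2 and 5. Replicate 6 was the lowest library for 28 of these 54 genes, and leaving out 1 library gave 48 to 70. A fold of 1.5 gave 175 higher and 390 lower. The proliferation list moved from -0.46 to 0.0633 with a minimum of 5, which left 8 members, and the fat cell list from -0.17 to 0.71 without a minimum (pseudocount 1). A list of YAP target genes at 0.03 moved to -0.0741 with equal totals and to -0.0997 without replicates 2 and 5, and ran from -0.0670 (without replicate 2) to 0.0758 with 1 library left out. Cfd (1.01) ran from -0.179 (without replicate 2) to 1.23 with 1 library left out, and turned to -0.0518 with the library median and -0.299 without replicates 2 and 5. The cause was not tested where the alternative's own construction does not show it. Of the 232 named genes, 0 to 5 moved by more than the spread between libraries under each alternative. All other list medians stayed within the spread between libraries under each alternative run. Genes near a mean of 1 rest on few reads, and nothing here measures the spread at 6 weeks.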

Other observations

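Ribosomal RNA entries, which selection for polyadenylated RNA should largely remove, differed widely between the 12-week MI libraries. Rn18s stood at a centred log2 ratio of 0.61 and Rn28s at 0.53, and the summed level of the 4 ribosomal RNA entries ran from 5330 to 59297 normalized counts in these libraries, against 19983 in the 6-week mean. Gene level went with the ratio as well. Genes with a mean level of 1 to 2 had a median of -0.14, and the 36 genes over 1000 had a median of 0.23.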
